A study of Homo sapiens with 36 samples.

Results

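The ERBB receptor tyrosine kinases EGFR, ERBB2, ERBB3 and ERBB4 and the receptor inhibitors ERRFI1 and LRIG1 are described here, 6 of the 66366 named genes in the files. They were taken by gene name, and all 6 were present in each of the 36 libraries. EGFR, ERBB2 and ERBB3 were above 1 FPKM (fragments scaled by transcript length and by the fragments mapped in the library) in every library. ERBB4 reached that level in H3255 only. ERRFI1 was at least 49.6 FPKM throughout, and LRIG1 lay between 0.883 and 4.75 FPKM.

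ERBB receptors sit in the plasma membrane of epithelial cells, pair after a ligand binds, and phosphorylate each other to start MAP kinase and PI3 kinase signalling. EGFR binds EGF, TGFA, AREG, EREG and related ligands, ERBB2 has no known ligand and acts as a partner, ERBB3 binds neuregulins but has a weak kinase, and ERBB4 binds neuregulins and has an active kinase. ERRFI1, also called MIG6, is a cytoplasmic protein that is transcribed after receptor activation, binds the kinase domain and blocks it. LRIG1 is a membrane protein that binds the receptors and promotes their degradation.

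RNA was sequenced from 4 human non-small cell lung cancer lines, each under 3 treatments of 24 h, with 3 libraries in each of the 12 groups. By genotype, H3255 carried EGFR L858R, H1975 carried EGFR L858R with T790M, H820 carried an EGFR exon 19 deletion with T790M, and A549 had wild-type EGFR. The first treatment was MinE07, an aptamer against EGFR, aptamers being nucleic acids whose fold lets them bind a target. Other cells received the control aptamer C36 in a lengthened form or the vehicle alone (DPBS containing Mg2+). Aptamers were given at 3 µM, and all groups were kept in 1% serum during treatment, in DMEM for A549 and in RPMI for H3255, H1975 and H820. Each genotype was represented by 1 established line, so genotype, genetic background and, for A549, medium cannot be told apart. The series record speaks of independent biological experiments, and the p-values measure the spread between these libraries.

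No counts were given, so depth is known only between libraries. Set against the median library, depth was between 0.590 and 1.39, and 13236 to 14267 genes exceeded 1 FPKM. Of the epithelial and lung adenocarcinoma markers, CDH1, KRT8 and KRT18 were above 20 FPKM in all libraries. EPCAM and KRT19 were low in A549 (at most 6.71 and 4.18 FPKM), and the lung lineage factor NKX2-1 was between 16.4 and 90.6 FPKM in H3255, H1975 and H820 but at most 0.0471 FPKM in A549. Of 6 markers of other cell types, PTPRC, CD3E, VWF and DCN stayed at or below 0.0719 FPKM, PECAM1 reached 0.523 FPKM in H1975, and COL1A1 reached 6.46 FPKM in H1975 and 3.15 FPKM in H3255.

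The EGFR alleles that separate the lines by label lie in the kinase domain. The reference codons affected by the substitutions are shown to place these changes, from GENCODE 29 transcript EGFR-201 on GRCh38, plus strand of chromosome 7, with the codon that the allele alters in capitals. Codon 858, changed in H3255 and H1975, is in exon 21 at chr7:55191806-55191838, and codon 790, changed in H1975 and H820, is in exon 20 at chr7:55181362-55181394. Gene-level FPKM does not separate alleles, so the values below sum over both.
EGFR codon 858: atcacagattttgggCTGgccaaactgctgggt
EGFR codon 790: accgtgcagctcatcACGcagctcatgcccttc

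Promoter windows of RefSeq (GRCh38.p14, 250 bases before to 50 after an annotated start) were available for 5 of the 6 genes. They are shown for EGFR, ERBB2 and ERRFI1, the 3 genes with the largest differences between MinE07 and C36 in H3255 in either direction, to set beside those differences. Capitals mark the GC box letters GGGCGG or their complement CCGCCC. Both strands were also searched for the AP-1 letters TGACTCA and the FOXO letters GTAAACA. The EGFR window at chr7:55018767-55019066 (plus strand) was 75.3% GC and held 3 GC boxes. The ERBB2 window at chr17:39687844-39688143 (plus strand) was 60.7% GC and held none of the 3 motifs. It lies at the outermost annotated start of the gene (17:39688094). No window at a start further into ERBB2 was available, so such starts were not searched for motifs. The ERRFI1 window at chr1:8026260-8026559 (minus strand) was 74.7% GC and held 1 GC box. Over 35116 promoter windows of the same length, 44.95% held a GC box, 4.95% the AP-1 letters and 3.42% the FOXO letters, so a GC box alone is common. A further annotated EGFR start, at chr7:55109589-55109888, had 2 AP-1 matches and no GC box.
EGFR promoter: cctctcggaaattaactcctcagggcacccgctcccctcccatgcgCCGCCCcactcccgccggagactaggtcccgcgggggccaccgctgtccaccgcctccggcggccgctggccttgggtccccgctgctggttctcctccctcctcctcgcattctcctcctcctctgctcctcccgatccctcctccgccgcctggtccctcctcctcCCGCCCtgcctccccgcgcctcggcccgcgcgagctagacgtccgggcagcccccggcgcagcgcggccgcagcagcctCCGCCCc
ERBB2 promoter: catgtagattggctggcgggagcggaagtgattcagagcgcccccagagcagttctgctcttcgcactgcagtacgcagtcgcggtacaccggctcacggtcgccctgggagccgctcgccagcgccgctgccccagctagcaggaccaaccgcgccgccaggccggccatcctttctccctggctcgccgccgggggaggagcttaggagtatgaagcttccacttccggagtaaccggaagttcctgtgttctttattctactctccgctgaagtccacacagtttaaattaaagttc
ERRFI1 promoter: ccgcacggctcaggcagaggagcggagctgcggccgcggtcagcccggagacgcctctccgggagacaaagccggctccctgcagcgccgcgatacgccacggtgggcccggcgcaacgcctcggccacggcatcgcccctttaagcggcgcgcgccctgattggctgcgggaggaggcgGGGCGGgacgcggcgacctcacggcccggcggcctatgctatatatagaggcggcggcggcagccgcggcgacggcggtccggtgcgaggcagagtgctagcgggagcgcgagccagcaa

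Vehicle libraries gave the levels without aptamer. EGFR (7:55019017-55211628) was far more abundant in H3255 than elsewhere, with vehicle values of 415, 421 and 420 FPKM. It was 24.6, 27.8 and 25.9 FPKM in H1975, 19.4, 20.3 and 19.9 FPKM in A549, and 7.39, 7.56 and 7.67 FPKM in H820. The 4 lines did not overlap, and all 6 pairs differed in limma, from 1.31-fold between H1975 and A549 (adjusted p 1.49e-06) to 52.2-fold between H3255 and H820 (adjusted p 3.80e-18). Differences between lines were common in general, since of all genes tested 84.3% were called between H3255 and H1975, 84.7% between H3255 and H820, 85.7% between H3255 and A549, 82.1% between H1975 and H820, 82.8% between H1975 and A549 and 83.8% between H820 and A549. After rescaling by medians of ratios the H1975 difference from A549 was 0.20 in place of 0.38 log2 (adjusted p 0.000506). The wild-type line thus lay between the lines with mutated EGFR.

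ERBB2 (17:39688094-39728658) followed the same order at the top, at 73.9 ± 1.17 FPKM (SD, n = 3) in H3255 and 18.9 ± 0.894 FPKM in H1975. A549 at 9.02 ± 0.373 and H820 at 8.65 ± 0.356 FPKM did not differ beyond their spread (log2 difference -0.06, 95% interval -0.16 to 0.04, adjusted p 0.2499 in limma). ERBB3 (12:56080108-56103505) was 28.8 ± 0.521 FPKM in H3255, 8.56 ± 0.0134 in H1975, 6.66 ± 0.203 in A549 and 2.62 ± 0.384 in H820, and all 6 pairs were called, H1975 against A549 at 0.34, or 0.17 after rescaling by medians of ratios (adjusted p 0.0422). ERBB4 (2:211375717-212538802) was 1.10 ± 0.0187 FPKM in vehicle-treated H3255. In H1975, H820 and A549 every library listed it at 0 or at no more than 0.00314 FPKM, so H3255 was the only line with transcripts of all 4 receptors at a measurable level.

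The inhibitors did not follow the receptors. ERRFI1 (1:8011727-8026309) was 94.6 ± 0.710 FPKM in H820, 90.3 ± 2.77 in A549, 85.2 ± 3.56 in H3255 and 65.9 ± 3.24 in H1975. Neighbours in that order were close: H820 and A549 differed by 0.07 log2 (adjusted p 0.172), and H3255 and A549 by -0.08 (adjusted p 0.0868), while H1975 was lower than each of the others. The difference of H3255 from A549 was called without H1975 vehicle replicate 1 (adjusted p 0.0482) or H3255 vehicle replicate 3 (-0.11, adjusted p 0.0450), and after rescaling by medians of ratios (-0.13, adjusted p 0.00911). On the TPM scale, in which each library's FPKM values are rescaled to the same sum, both neighbours differed: H820 from A549 by 0.13 (adjusted p 0.0215) and H3255 from A549 by -0.13 (adjusted p 0.0189). The H3255 difference from H820 was -0.15, and -0.27 on that scale (adjusted p 0.000187). LRIG1 (3:66378797-66501121) was 4.03, 4.75 and 4.72 FPKM in H820, and on average 3.20 ± 0.154 in H3255, 3.03 ± 0.160 in H1975 and 0.913 ± 0.0494 in A549. H3255 and H1975 did not pass the test (0.07, adjusted p 0.344). Rescaling by medians of ratios moved the median of all genes between these lines by 0.12 and gave LRIG1 a called difference of 0.19 (adjusted p 0.0107). The same rescaling moved the median by -0.16 between H1975 and A549 and by -0.15 between H1975 and H820.

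**Figure D1:**
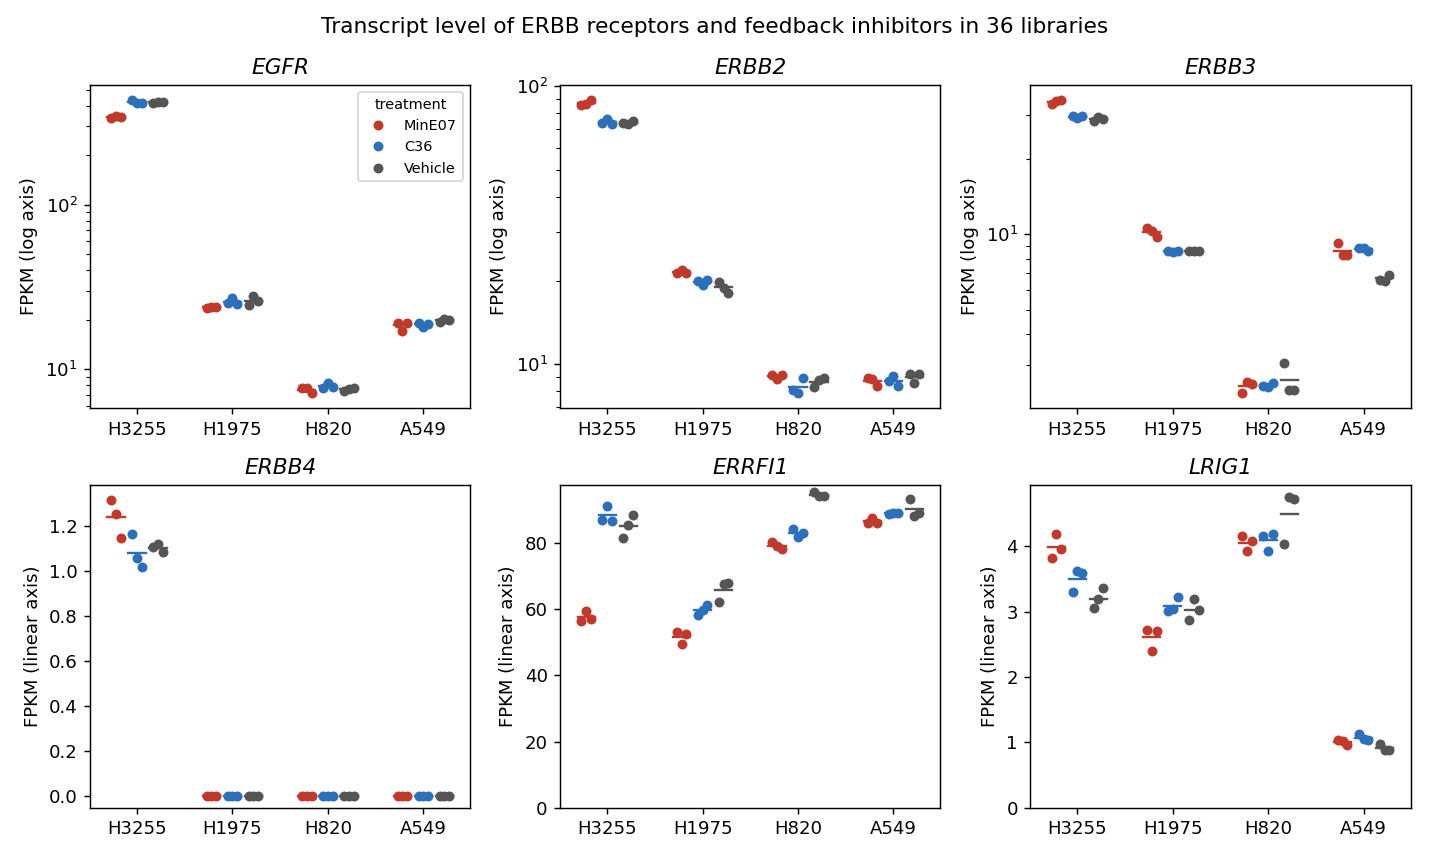
FPKM of EGFR, ERBB2, ERBB3, ERBB4, ERRFI1 and LRIG1 in each of the 36 libraries by line and treatment, with the group mean as a short line; the y axis is logarithmic for EGFR, ERBB2 and ERBB3 and linear from 0 for the others. The H3255 points lie highest for all 4 receptors, and the 3 H3255 points under MinE07 lie below the other H3255 points for EGFR (336 to 347 FPKM) and ERRFI1 (56.4 to 59.4 FPKM) and above them for ERBB2, ERBB3 and LRIG1.

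MinE07 was compared with C36 to measure the response to an EGFR-directed aptamer against that to a control aptamer. In H3255, EGFR and ERRFI1 fell while ERBB2, ERBB3 and LRIG1 rose, so 5 of 6 genes were called, against 36.7% of all 13429 genes tested. The 3 that rose compare with 16.6% of genes called higher, and the 2 that fell with 20.0% called lower. The MinE07 and C36 libraries did not overlap for those 5 genes, which held for 49.9% of genes tested. In bulk RNA, fewer expressing cells and less transcript per cell cannot be told apart.

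EGFR in H3255 was 336, 347 and 341 FPKM with MinE07, 436, 418 and 414 FPKM with C36, and 415, 421 and 420 FPKM with vehicle. The MinE07 libraries were the lowest 3, and C36 overlapped vehicle. EGFR fell by 0.31 on the log2 scale against C36 (SE 0.0299, limma adjusted p 3.29e-05), a change of -19.3%. It fell by 0.29 against vehicle (adjusted p 3.90e-05), a comparison that shares the MinE07 libraries. EGFR remained the most abundant of the 4 receptors per length in H3255 under MinE07.

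ERBB2 in H3255 was 85.8, 86.4 and 89.4 FPKM with MinE07, 73.5, 75.9 and 73.1 FPKM with C36, and 73.8, 72.8 and 75.2 FPKM with vehicle. It rose by 0.23 on the log2 scale against C36 (SE 0.0303, adjusted p 0.000222), or 17.5%. ERBB3 was 33.1, 33.9 and 34.4 FPKM with MinE07, 29.6, 29.2 and 29.5 FPKM with C36, and 28.4, 29.4 and 28.7 FPKM with vehicle. It rose by 0.20 (SE 0.0290, adjusted p 0.000483), or 14.6%. For each of these partner receptors the 3 MinE07 libraries lay above all 6 others. ERBB4 was 1.32, 1.25 and 1.14 FPKM with MinE07, 1.16, 1.06 and 1.02 FPKM with C36, and 1.11, 1.12 and 1.08 FPKM with vehicle. Its difference from C36 was 0.14 and did not pass the test (95% interval 0.00092 to 0.28, adjusted p 0.108), and its MinE07 and C36 libraries overlapped.

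The inhibitors moved apart in H3255. ERRFI1 was 56.4, 59.4 and 57.1 FPKM with MinE07, 87.1, 91.2 and 86.8 FPKM with C36, and 81.5, 85.4 and 88.6 FPKM with vehicle. It fell by 0.61 on the log2 scale against C36 (SE 0.0384, adjusted p 1.53e-06), a change of -34.6%, and by 0.56 against vehicle (adjusted p 2.74e-06). This was the largest difference between MinE07 and C36 among the 6 genes in any line. LRIG1 was 3.81, 4.18 and 3.96 FPKM with MinE07, 3.29, 3.62 and 3.58 FPKM with C36, and 3.05, 3.19 and 3.36 FPKM with vehicle. It rose by 0.16 against C36 (SE 0.0531, adjusted p 0.0328) and by 0.28 against vehicle (adjusted p 0.00218). The call against C36 was lost on the TPM scale (0.13, adjusted p 0.121), with no filter on low values (0.16, 0.0956), and without C36 replicate 1 (0.13, adjusted p 0.117), C36 replicate 3 (0.18, 0.0552), MinE07 replicate 2 (0.13, 0.118) or MinE07 replicate 3 (0.17, 0.0634). The files list a further copy of LRIG1 with nearly the same values (3.85 to 3.90 FPKM with MinE07), for which the difference was 0.13 and not called (adjusted p 0.0580), so how fragments were shared between the copies bears on this gene. With the copies summed, LRIG1 rose by 0.16 (adjusted p 0.0214).

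In H1975 (L858R with T790M), ERBB3 rose and ERRFI1 and LRIG1 fell against C36. That made 3 of 5 tested genes called, against 19.9% of all genes tested, and the libraries of all 5 did not overlap, which held for 40.3% of genes. Of all genes, 8.88% were called higher and 11.1% lower. ERBB3 was 10.6, 10.3 and 9.74 FPKM with MinE07, 8.58, 8.51 and 8.56 FPKM with C36, and 8.56, 8.54 and 8.57 FPKM with vehicle. It rose by 0.24 on the log2 scale (SE 0.0346, adjusted p 0.00152), or 18.1%, and every MinE07 library lay above the 6 others. ERRFI1 was 53.1, 49.6 and 52.5 FPKM with MinE07, 58.2, 59.9 and 61.4 FPKM with C36, and 62.1, 67.6 and 67.9 FPKM with vehicle. It fell by 0.21 against C36 (SE 0.0421, adjusted p 0.00800) and by 0.35 against vehicle (adjusted p 0.000650), and the 3 groups did not overlap.

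LRIG1 in H1975 was 2.72, 2.39 and 2.71 FPKM with MinE07, 3.00, 3.03 and 3.22 FPKM with C36, and 2.87, 3.19 and 3.03 FPKM with vehicle. It fell by 0.21 against C36 (SE 0.0578, adjusted p 0.0312), the opposite direction to H3255. The call was lost with no filter on low values (adjusted p 0.0984), without any C36 library (adjusted p 0.0610, 0.0720 and 0.102), without MinE07 replicate 2 (0.0930) and without MinE07 replicate 3 (0.0508). With the further copy summed, LRIG1 fell by 0.22 (adjusted p 0.0123). Against vehicle LRIG1 fell by 0.19 (adjusted p 0.0428), a call lost without any single library but vehicle replicate 1 (adjusted p up to 0.132).

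EGFR and ERBB2 did not pass the test against C36 in H1975. EGFR was 23.7, 23.8 and 23.9 FPKM with MinE07, 25.1, 27.2 and 24.9 FPKM with C36, and 24.6, 27.8 and 25.9 FPKM with vehicle, a log2 difference of -0.11 from C36 (95% interval -0.21 to -0.00255, adjusted p 0.138) and -0.13 from vehicle (adjusted p 0.0768). Its MinE07 libraries were the lowest 3, and against vehicle it was called without vehicle replicate 1 (-0.17, adjusted p 0.0260). ERBB2 was 21.4, 21.9 and 21.2 FPKM with MinE07, 20.0, 19.3 and 20.2 FPKM with C36, and 19.8, 18.9 and 18.0 FPKM with vehicle. Its difference was 0.12 from C36 (95% interval 0.03 to 0.20, adjusted p 0.0559), and it rose by 0.18 against vehicle (adjusted p 0.00739). The comparison with C36 was called without vehicle replicate 1 (adjusted p 0.0265) or vehicle replicate 3 (adjusted p 0.0422), which enter through the shared spread, while on the TPM scale it was 0.07 (adjusted p 0.406). Against vehicle 4 of 5 genes were called in H1975, where 23.7% of genes were, and 5 of 6 in H3255, where 38.6% were.

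In H820 (exon 19 deletion with T790M) none of 5 tested genes was called between MinE07 and C36 in limma, where 0.0364% of all genes were, and 2 of the 5 had an unadjusted p under 0.05, as did 10.2% of all genes. EGFR was 7.65, 7.63 and 7.13 FPKM with MinE07 and 7.68, 8.19 and 7.80 FPKM with C36 (difference -0.07, 95% interval -0.16 to 0.01, adjusted p 0.560). ERBB2 was 9.14, 8.86 and 9.13 FPKM with MinE07 and 8.10, 7.87 and 8.89 FPKM with C36 (0.12, 95% interval 0.02 to 0.22, adjusted p 0.434). ERRFI1 was 80.2, 79.2 and 78.2 FPKM with MinE07 and 84.2, 81.8 and 83.1 FPKM with C36 (-0.07, 95% interval -0.12 to -0.02, adjusted p 0.367). The EGFR and ERRFI1 libraries did not overlap between these groups, 2 of 5 where 17.1% of genes did not, while those of ERBB2, ERBB3 and LRIG1 did. ERBB3 and LRIG1 each differed by -0.01, with intervals from -0.18 to 0.16 and from -0.14 to 0.12. On the TPM scale, which moved the median of all genes by 0.10 in this comparison, EGFR, ERRFI1, ERBB3 and LRIG1 were above 0 (0.02, 0.03, 0.08 and 0.08) and ERBB2 was 0.22, and none was called (adjusted p 0.0724 to 0.829).

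ERRFI1 was the gene that separated aptamer from vehicle in H820. Its vehicle libraries were 95.4, 94.2 and 94.1 FPKM, above all 6 aptamer libraries. It fell by 0.25 with MinE07 (SE 0.0225, adjusted p 0.000808) and by 0.19 with C36 (adjusted p 0.00404), so 1 of 5 genes was called in each comparison, where 3.02% and 2.85% of genes were. These comparisons share the vehicle libraries. On the TPM scale neither was called: the MinE07 libraries then differed from vehicle by -0.18 (adjusted p 0.0764) and those of C36 by -0.21 (adjusted p 0.0961), while the median of all genes moved by 0.07 and -0.03.

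In A549 (wild-type EGFR) none of 4 tested genes was called between MinE07 and C36, where 0.0% of all genes were called and 10.8% had an unadjusted p under 0.05; none of the 4 had one. EGFR was 19.1, 17.2 and 19.1 FPKM with MinE07 and 19.2, 18.0 and 18.9 FPKM with C36 (-0.02, 95% interval -0.13 to 0.09). ERBB2 differed by 0.00214 (95% interval -0.10 to 0.11), ERBB3 by -0.03 (-0.14 to 0.08) and ERRFI1 by -0.04 (-0.12 to 0.04). ERRFI1 was 86.1, 87.7 and 86.0 FPKM with MinE07 and 88.8, 89.2 and 89.0 FPKM with C36, groups that did not overlap, as for 22.6% of genes. LRIG1 had a mean of 0.995 FPKM over the 9 A549 libraries, just under the limit for testing within the line, at 1.03, 1.02 and 0.962 FPKM with MinE07 and 1.12, 1.05 and 1.04 FPKM with C36. Its further copy, with a mean of 1.005 FPKM, was tested in A549. That copy differed by -0.07 between MinE07 and C36 (limma adjusted p 0.670) and by 0.13 between C36 and vehicle (adjusted p 0.221), and neither was called.

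ERBB3 rose with either aptamer in A549. It was 6.59, 6.50 and 6.89 FPKM with vehicle, 8.84, 8.81 and 8.61 FPKM with C36, and 9.23, 8.23 and 8.29 FPKM with MinE07. All 6 aptamer libraries lay above the 3 vehicle libraries. The rise was 0.37 with C36 (SE 0.0487, adjusted p 0.00615), or 29.2%, and 0.34 with MinE07 (adjusted p 0.0440), with the vehicle libraries shared. Each comparison called 1 of 4 genes, where 6.0% and 0.216% of genes were called. The MinE07 call was lost without any single library of the 9 except vehicle replicate 1, with adjusted p up to 0.144, and on the TPM scale (adjusted p 0.0860). In H3255 and H1975 none of the 6 and 5 tested genes was called between C36 and vehicle in limma, where 0.305% and 0.233% of genes were; ERRFI1 in H1975 had an unadjusted p under 0.05 (-0.14, adjusted p 0.183) and no gene in H3255 did.

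**Figure D2:**
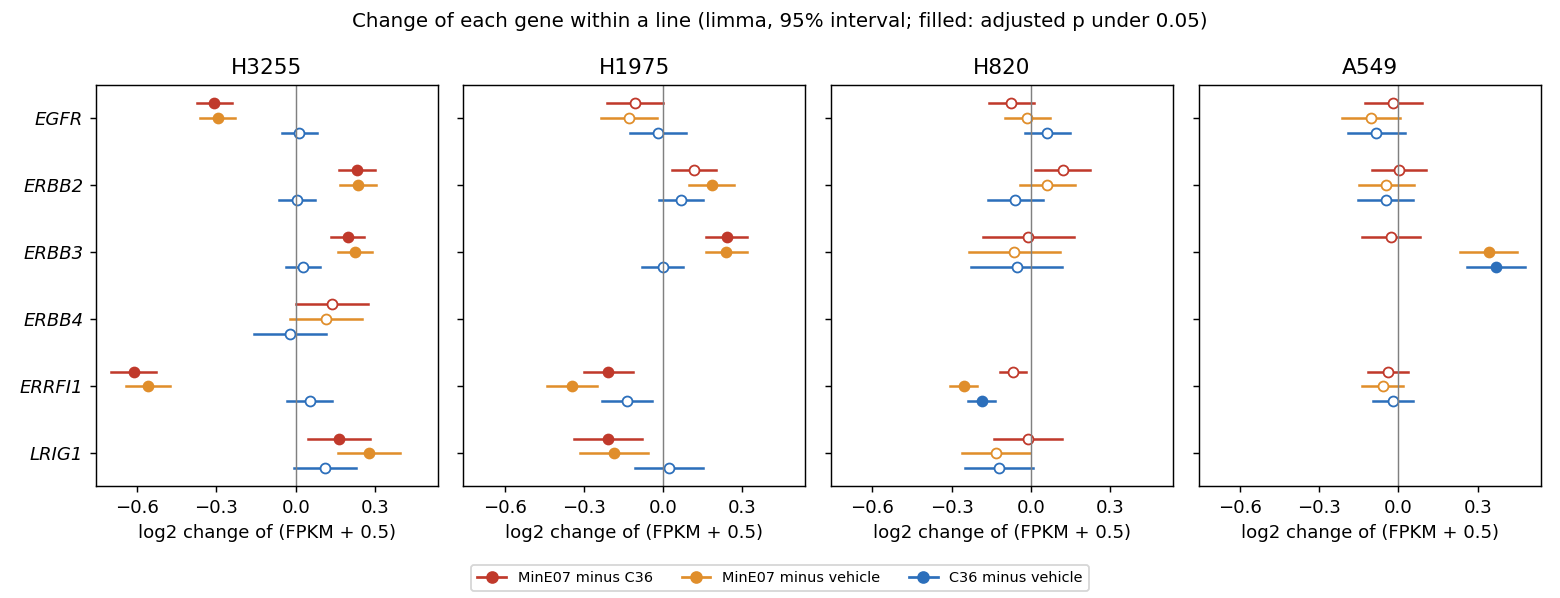
Log2 difference of FPKM + 0.5 for each gene in each line between MinE07 and C36, MinE07 and vehicle, and C36 and vehicle, as points with 95% intervals from limma, filled where the adjusted p was under 0.05; genes under the level limit in a line have no point. In H3255 the MinE07 points of EGFR (-0.31 against C36) and ERRFI1 (-0.61) lie left of 0 and those of ERBB2 and ERBB3 right of it, while in A549 only ERBB3 against vehicle is filled.

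Whether the response differed between lines was tested directly, as the difference of the MinE07 minus C36 change between 2 lines in 1 fit of all 36 libraries. Genes entered this fit by their mean over the 36 libraries. LRIG1 did so although it averaged 0.995 FPKM in A549, under the limit for testing within that line. Of the 5 genes tested, 5 were called between H3255 and A549, where 25.2% of all genes were, 3 between H3255 and H1975 (15.2%), 3 between H3255 and H820 (18.9%), 2 between H1975 and A549 (12.6%), 1 between H1975 and H820 (7.32%) and 0 between H820 and A549 (0.323%), where 1 of the 5 had an unadjusted p under 0.05, as did 12.3% of all genes. That 1 gene, ERBB2, was called there on the TPM scale (0.25, adjusted p 0.0487), on which the median of all genes moved by 0.12. EGFR fell more in H3255 than in A549 (-0.29, adjusted p 0.000450), H820 (-0.23, adjusted p 0.00456) and H1975 (-0.20, adjusted p 0.0176). The last of these was not called without H1975 C36 replicate 1 (adjusted p 0.0504), H1975 C36 replicate 3 (0.0572) or H3255 C36 replicate 1 (0.0565), nor on the TPM scale (-0.20, adjusted p 0.172), while the difference from H820 was -0.38 on that scale (adjusted p 0.00159).

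ERRFI1 fell more in H3255 than in each other line, by -0.57 against A549 (adjusted p 4.12e-10), -0.55 against H820 (adjusted p 1.21e-09) and -0.41 against H1975 (adjusted p 3.11e-07). It also fell more in H1975 than in A549 (-0.17, adjusted p 0.0184), a call lost without H1975 C36 replicate 3 (adjusted p 0.0537) or H1975 MinE07 replicate 2 (0.0665) and on the TPM scale (-0.19, adjusted p 0.110). ERBB2 differed between H3255 and A549 (0.23, adjusted p 0.00295). Between H3255 and H1975 the ERBB2 difference was 0.12 (95% interval 0.000868 to 0.23, adjusted p 0.181).

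The ERBB3 rise in H3255 and in H1975 differed by -0.04 (95% interval -0.19 to 0.11, adjusted p 0.770). ERBB3 differed between H1975 and A549 (0.27, adjusted p 0.0141), H1975 and H820 (0.25, adjusted p 0.0338), H3255 and A549 (0.23, adjusted p 0.0229) and H3255 and H820 (0.21, adjusted p 0.0467). On the TPM scale the ERBB3 difference was 0.12 between H1975 and H820 (adjusted p 0.409) and 0.07 between H3255 and H820 (adjusted p 0.637), where the median of all genes moved by -0.13 and -0.12. It was also lost on that scale between H1975 and A549 (0.26, adjusted p 0.127) and H3255 and A549 (0.21, adjusted p 0.148). The difference of H3255 from H820 was lost in 18 of the fits that left out 1 library, those without any single H3255 library under either aptamer or any H820 one but MinE07 replicate 2 among them (adjusted p 0.0516 to 0.132), that of H1975 from H820 without 9 of the 12 libraries of those groups (adjusted p up to 0.0843), and that of H3255 from A549 without A549 MinE07 replicate 2 or 3 (adjusted p 0.0626 and 0.0623). LRIG1 moved in opposite directions in H3255 and H1975, and that difference was 0.37 (95% interval 0.22 to 0.53, adjusted p 0.000715). It was also called between H3255 and A549 (0.22, adjusted p 0.0290), though not without A549 C36 replicate 1, A549 MinE07 replicate 3, H3255 C36 replicate 1 or H3255 MinE07 replicate 2 (adjusted p 0.0722 to 0.0918), nor on the TPM scale (0.0923) or with no filter on low values (0.0630). LRIG1 gained a call between H3255 and H820 after rescaling by medians of ratios (0.20, adjusted p 0.0461), and on the TPM scale ERRFI1 and LRIG1 gained one between H1975 and H820 (-0.29 and -0.36, adjusted p 0.00401 and 0.00857).

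FPKM is scaled by length, so the receptors can be set against each other within a library. In H3255, EGFR made up 73.7%, 74.0% and 73.2% of summed receptor FPKM with MinE07, 80.7%, 79.8% and 80.0% with C36, and 80.1%, 80.3% and 80.0% with vehicle. ERBB2 took 18.8% ± 0.362 (SD, n = 3) with MinE07 and 14.1% ± 0.440 with C36, and ERBB3 took 7.29% ± 0.0813 and 5.58% ± 0.110. MinE07 libraries had a summed receptor FPKM of 464 ± 6.21, C36 libraries 528 ± 11.5 and vehicle libraries 523 ± 3.81. The MinE07 libraries did not overlap the others on any of these measures. A two-sided exact permutation test gave p = 0.1, the smallest value that 3 against 3 libraries allow, so no share in the 12 comparisons could reach 0.05.

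The EGFR share in H1975 was 42.9% ± 0.592 under MinE07, against 47.5% ± 1.68 for C36 and 48.7% ± 2.01 for vehicle, again without overlap between MinE07 and the other groups (exact permutation p = 0.1 each). The summed receptor FPKM there was 55.5 ± 0.572 with MinE07 and 54.1 ± 0.782 with C36 (exact permutation p = 0.2). For H820 the EGFR share was 39.3% ± 1.19 under MinE07, 42.3% ± 1.87 under C36 and 40.1% ± 0.513 in vehicle. The C36 shares did not overlap those of MinE07 or vehicle (exact permutation p = 0.1 each). Those of MinE07 overlapped vehicle (exact permutation p = 0.5). ERBB2 had the largest mean share in H820 in each treatment, at 47.6% ± 1.08 under MinE07, 44.4% ± 1.84 under C36 and between 44.1% and 47.1% in vehicle, although in C36 replicate 2 EGFR (44.2%) was above ERBB2 (42.5%). In A549 the EGFR share was 51.6% ± 1.69 with MinE07 and 51.7% ± 1.33 with C36 (exact permutation p = 0.9) but 55.9% ± 1.26 with vehicle, and the ERBB3 share was 24.0% ± 0.799, 24.2% ± 0.316 and 18.7% ± 0.376. For both shares, neither aptamer overlapped vehicle (exact permutation p = 0.1 each).

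ERRFI1 relative to EGFR spanned a wide range. There was 0.203 ± 0.00727 FPKM of ERRFI1 per FPKM of EGFR in vehicle-treated H3255, 2.53 ± 0.0951 in H1975, 4.55 ± 0.236 in A549 and 12.5 ± 0.327 in H820. With MinE07 the ratio was 0.169 ± 0.00224 in H3255, below its C36 value of 0.209 ± 0.00915 without overlap (exact permutation p = 0.1). In H1975 it was 2.17 ± 0.0846 with MinE07 and 2.33 ± 0.134 with C36, which overlapped (exact permutation p = 0.2).

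**Figure D3:**
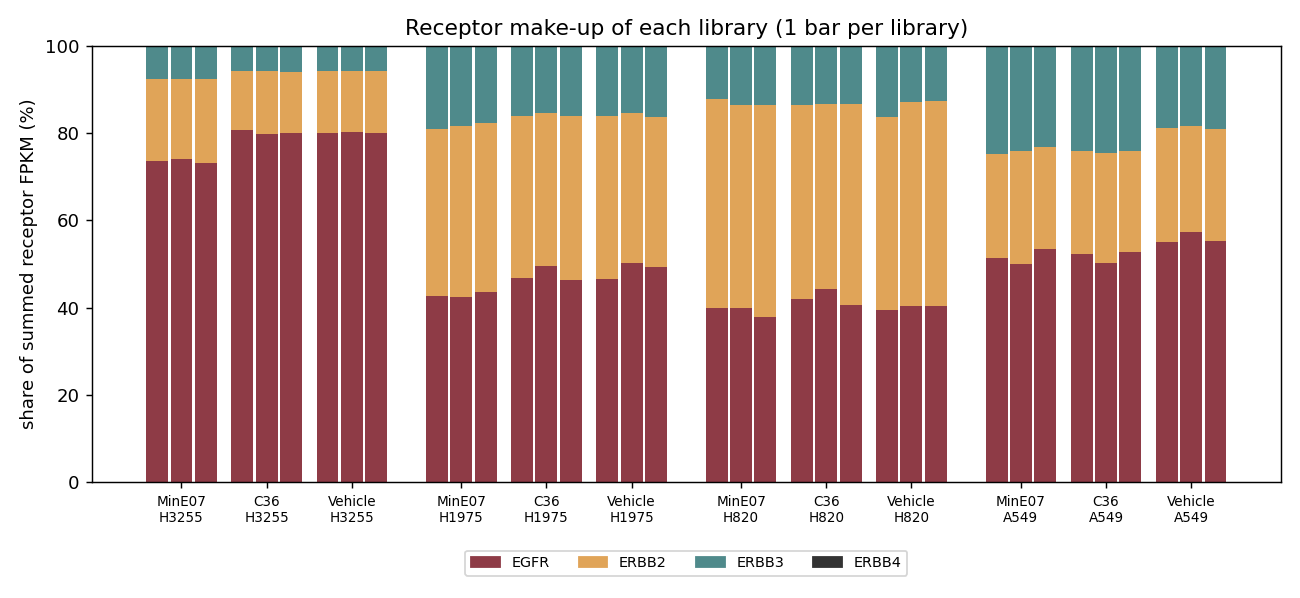
Share of EGFR, ERBB2, ERBB3 and ERBB4 in the summed receptor FPKM, in percent, with 1 bar for each of the 36 libraries grouped by line and treatment; ERBB4 is too scarce to be visible. EGFR takes 73.2% to 74.0% in the H3255 MinE07 bars and 79.8% to 80.7% in the H3255 C36 bars, and in H820 ERBB2 takes the largest share in all bars but that of C36 replicate 2.

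Of 11 ERBB ligand genes, 7 were tested in H3255 and 4 of them fell with MinE07 against C36, where 20.0% of all genes were called lower, with a median over the tested ligands of -0.48 beside -0.01 for all genes. AREG, which encodes amphiregulin, went from 9.70 ± 0.481 to 3.45 ± 0.234 FPKM (log2 change -1.37, SE 0.0644, adjusted p 2.69e-07), EREG, epiregulin, changed by -1.31, EPGN, epigen, by -0.80 and HBEGF by -0.48. EREG averaged 0.418 FPKM with MinE07 and 1.78 FPKM with C36, and HBEGF 0.658 and 1.11 FPKM. Both were thus under 1 FPKM with MinE07 and passed the level limit through the other groups. The added 0.5 understates their fall. In H1975, 5 of 6 tested ligands fell, where 11.1% of all genes were called lower (median -0.30 beside -0.01 for all genes), from AREG at -0.51, HBEGF at -0.32 and EREG at -0.28 to TGFA at -0.15. The remaining one was NRG1, a ligand of ERBB3, at 6.11 ± 0.176 FPKM with MinE07 and 8.11 ± 0.251 FPKM with C36 (-0.38, adjusted p 0.000232). H3255 had next to no NRG1 (0.00894 ± 0.0155 FPKM with vehicle). None of the 6 tested ligands was called between MinE07 and C36 in H820 or A549. Of 6 ligands, 2 were called between C36 and vehicle in A549, where 6.0% of all genes were: BTC rose by 0.36 (adjusted p 0.0172) and NRG1 fell by 0.23 (adjusted p 0.0264), counts that went to 0 without C36 replicate 3 or vehicle replicate 3, to 1 without C36 replicate 1, C36 replicate 2 or vehicle replicate 2, and to 4 without vehicle replicate 1. In H820, EREG fell by 0.15 with MinE07 against vehicle (adjusted p 0.0424), 1 of 6 ligands where 3.02% of all genes were called, a call lost without any single library but MinE07 replicate 1 and C36 replicate 1.

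**Figure D4:**
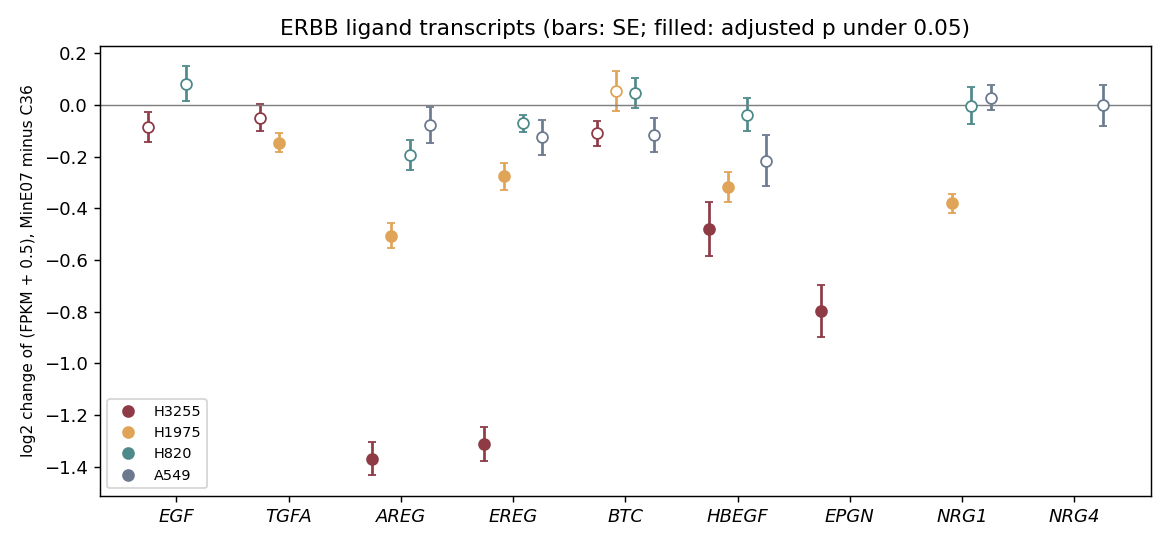
Log2 difference of FPKM + 0.5 between MinE07 and C36 for the ERBB ligand genes tested in each line, with bars of 1 SE and filled points where the limma adjusted p was under 0.05. The H3255 points of AREG (-1.37) and EREG (-1.31) lie lowest, the filled H1975 points lie between -0.51 and -0.15, and all H820 and A549 points are open.

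Among genes that move receptors from the membrane to degradation, the counts called between MinE07 and C36 did not stand above the background. In H3255, 2 of 15 tested rose and 2 fell with MinE07 against C36 (median -0.05), and in H1975 1 of 16 rose and 1 fell (median -0.02). Of all genes, 36.7% and 19.9% were called in these lines. CBLB, a ubiquitin ligase of the CBL family that marks EGFR for degradation, rose by 0.25 in H3255 (adjusted p 0.00468), and the H1975 rise was 0.30 (adjusted p 0.0166). Its relative CBL fell by 0.27 in H3255 (adjusted p 0.00323). SH3KBP1, the adaptor CIN85 that binds CBL, changed by -0.34 (adjusted p 0.000228) in H3255, and the H1975 change was -0.16 (adjusted p 0.00781). EPS15, an endocytic adaptor, rose by 0.17 in H3255 (adjusted p 0.00840). The H1975 count was 1 without C36 replicate 3 or MinE07 replicate 1. In A549, 1 of 14 tested genes of this list was called between C36 and vehicle, where 6.0% of all genes were, so this count is near the background. It was RNF41, a ubiquitin ligase of ERBB3 also called NRDP1. RNF41 rose by 0.32 (adjusted p 0.0213), a call lost without any C36 library or vehicle replicate 3.

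Of 7 other receptor inhibitors, LRIG3 (-0.21, adjusted p 0.00178), a relative of LRIG1, and SOCS4 (-0.11, adjusted p 0.0441) fell in H3255, and PTPRJ, a receptor phosphatase, rose in H1975 (0.23, adjusted p 0.0235). These are 2 of 7 and 1 of 6 tested, where 36.7% and 19.9% of all genes were called, so neither count stands above the background. The H3255 count was 1 without C36 replicate 1 or 3, MinE07 replicate 1 or 3, or vehicle replicate 1. The H1975 count was 0 without C36 replicate 1 or 2 or MinE07 replicate 3. LRIG1 was thus the called inhibitor that rose in H3255, while LRIG3 fell. The LRIG1 call was lost in 6 of 20 refits, and its further copy was not called (0.13, limma adjusted p 0.0580).

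Of 23 adaptors and signal relays, 3 rose and 4 fell in H3255 (median -0.06), and 3 rose and 2 fell in H1975 (median -0.01). Both counts are near the background of 36.7% and 19.9% of all genes called. MAP2K1, which encodes the MAP kinase kinase MEK1, changed most in both, from 13.9 ± 0.653 to 9.05 ± 0.198 FPKM in H3255 (-0.59, adjusted p 2.11e-06) and from 20.5 ± 0.420 to 17.5 ± 0.799 FPKM in H1975 (-0.22, adjusted p 0.00250). SOS1, the exchange factor that activates RAS, rose by 0.28 in H3255 (adjusted p 0.000737), and GAB1, a docking adaptor, rose by 0.20 in H1975 (adjusted p 0.0343). MAPK3 (0.15) and PIK3R2 (0.13) also rose in H1975. The H3255 count of 7 was 4 without C36 replicate 1. The H1975 count of 5 was 1 without C36 replicate 2 or C36 replicate 3, 2 without MinE07 replicate 2 or MinE07 replicate 3, and 3 without C36 replicate 1. None of the 23 in H820 and 22 in A549 was called between MinE07 and C36.

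The genes most like each receptor and inhibitor were found by Pearson correlation of log2 values over the 36 libraries after each line's mean was subtracted, among 10994 genes with a mean of at least 1 FPKM in each line. These are descriptions, since the libraries share treatments. EGFR was closest to MET, another receptor tyrosine kinase (r = 0.93), which was 36.2 ± 0.845 FPKM with MinE07 and 44.5 ± 1.15 FPKM with C36 in H3255, and to the nuclear pore gene NUP205 (r = 0.91). ERRFI1 was closest to VEGFA, the angiogenic growth factor (r = 0.94), which averaged 34.1 and 57.8 FPKM in the same groups, and to the haem synthesis gene CPOX (r = 0.92). ERBB2 was closest to ABTB1 (r = 0.86) and the clock output factor DBP (r = 0.85), ERBB3 to the galactosyltransferase gene B4GALT1 (r = 0.78) and the kinase gene MKNK2 (r = 0.78), and LRIG1 to METTL16 (r = 0.76) and DDIT4 (r = 0.75). Among the 6 genes, EGFR and ERRFI1 varied together (r = 0.78) and EGFR varied against ERBB2 (r = -0.76) and ERBB3 (r = -0.62), while LRIG1 and ERRFI1 had r = -0.09. The differences between MinE07 and C36 were largest in H3255 for EGFR (-0.31) and ERRFI1 (-0.61), so that line weighs heavily in these values. Correlations within a single line were not computed.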

How the data were processed

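RNA was poly-A selected, made into stranded libraries and read in pairs of 100 bases, per the labels' protocols. The authors deposited 1 table of FPKM per gene for each of the 36 libraries. HISAT2 and Cuffdiff, with GRCh38.p12 and hg38, are listed without roles or versions in the submitters' processing notes, and the annotation is not given in the sources used here. Whether counting used strand is not given either, so reads of EGFR and its antisense gene EGFR-AS1 (at most 1.02 FPKM) cannot be told apart.

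Each table has 68271 entries. The 1874 without a name and 31 with repeated names were left out, which left 66366. Further copies of a name were kept as separate genes. With no counts, only relative depth was computed, from the steps between low values, and an exact 0 is described as listed at 0. No counting interval was computed.

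Values were analysed as log2(FPKM + 0.5), which understates changes of low genes, for genes with a mean of at least 1 FPKM in a fit. Folds and percent changes given with a limma result are of FPKM + 0.5. The levels of EGFR and its neighbours relative to the next line are ratios of mean FPKM. The 9 libraries of a line entered 1 model with a mean for each treatment. Fits used limma 3.58.1 under R 4.3.3, where moderation was robust (statmod 1.5.0) and followed a trend on mean level. Vehicle levels used the 12 vehicle libraries, and differences between lines in the MinE07 minus C36 change used all 36. Calls are two-sided at a Benjamini-Hochberg adjusted p under 0.05 over all genes tested. Receptor shares were compared by exact permutation over libraries (Python 3.11.15, scipy 1.17.1). The fit was tested on simulated data. For MinE07 against C36 in H3255 (13429 genes) it recovered 47% of 100 genes changed by 0.25 and 90% of 100 changed by 0.5 log2. In H820 (13753 genes) the shares were 47% and 84%. Of the unchanged genes, 10 were called in H3255 and 8 in H820. No other genes were changed in the simulation, while the data called 4925 genes in H3255 and 5 in H820 for this comparison. The adjusted p depends on how many genes change, so these shares do not carry over to the data.

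The 6 genes and the 4 pathway lists were chosen with earlier results of these data known. The text names all 6 genes; in each list and line the called genes with the highest and lowest change between MinE07 and C36, and those needed to account for counts of 5 or fewer; and the 2 genes most correlated with each of the 6. Alternatives were other pseudocounts (0.1 and 1), no level filter, rescaling by medians of ratios or to TPM, ordinary moderation, a replicate block, copies left out, other sets of libraries in the fit, and each library left out in turn. Summing the copies of a gene was added after LRIG1's copy was seen. A called gene that the naming rule covers is not reported here.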

Additional observations from a re-analysis of the deposited data

Results flagged for a closer look

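Lines differed in their MinE07 minus C36 change by a direct test (an interaction term in limma, adjusted p under 0.05 over all genes tested) in 14 cases over 6 pairs of lines. Of all genes tested, H3255 differed from A549 in 25.2%, from H1975 in 15.2% and from H820 in 18.9%. H1975 differed from A549 in 12.6% and from H820 in 7.32%, and H820 from A549 in 0.323%. For H3255 minus A549 the difference in log2 change was -0.29 for EGFR, 0.23 for ERBB2, 0.23 for ERBB3, -0.57 for ERRFI1 and 0.22 for LRIG1. For H3255 minus H1975 it was -0.20 for EGFR, -0.41 for ERRFI1 and 0.37 for LRIG1. For H3255 minus H820 it was -0.23 for EGFR, 0.21 for ERBB3 and -0.55 for ERRFI1. For H1975 minus A549 it was 0.27 for ERBB3 and -0.17 for ERRFI1, and for H1975 minus H820 it was 0.25 for ERBB3. Some calls were lost in refits, that of ERBB3 in 22 of 33 between H3255 and H820 and in 13 between H1975 and H820. Between H3255 and A549, ERBB3 lost its call in 4 and LRIG1, with a mean of 0.995 FPKM in A549, in 6. EGFR between H3255 and H1975 lost it in 4. Between H1975 and A549, ERRFI1 lost it in 3 and ERBB3 in 1. LRIG1 in H3255 and H1975 is the case in which called changes had opposite signs, 0.16 and -0.21 against C36. Each line is 1 cell line, so what sets the lines apart was not tested.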

How the results depend on the processing

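Of 2817 refits of a gene's difference, 2705 left the call as it was, 93 lost it, 19 gained it and 0 reversed a called value. Among those with the call as it was, 50 changed sign and were called in neither fit, the largest at 0.11 log2. EGFR, ERBB2, ERBB3 and ERRFI1 in H3255 and ERBB3 and ERRFI1 in H1975 kept their calls between MinE07 and C36 in all refits; EGFR in H3255 ran from -0.35 to -0.29 and ERRFI1 from -0.66 to -0.59. ERBB2 in H1975 was called after rescaling by medians of ratios (0.12, adjusted p 0.0496), with only the groups compared (0.12, 0.0324) and in 1 fit of all libraries (0.12, 0.0366), and was 0.07 on the TPM scale (0.406). It ran from 0.10 to 0.13 without single libraries. LRIG1 in H1975 lost its call with no level filter (-0.21, adjusted p 0.0984) and ran from -0.23 to -0.16 without single libraries. LRIG1 in H3255 lost it with no filter (0.16, 0.0956) and on the TPM scale (0.13, 0.121) and ran from 0.13 to 0.19 without single libraries. The 1 gene called in A549 between MinE07 and vehicle, ERBB3, became 0 on the TPM scale, with no filter, with only the groups compared and with ordinary moderation, and 0 to 1 without single libraries. The 1 gene called in H820 against vehicle became 0 for either aptamer on the TPM scale, and in H1975 the 0 genes called between C36 and vehicle became 1 in 1 fit of all libraries (ERRFI1, -0.14, adjusted p 0.0290).

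Whether libraries with the same replicate number deviated together was not settled. Of 36 such pairs, the correlation of deviations from the group means ran from -0.16 to 0.25 and exceeded 0.1 in 8. The 8 included 4 of 9 pairs in H820 and 3 of 9 in H3255. Pairs with different numbers were not set beside them. With the replicate block, LRIG1 in H1975 was not called against C36 (-0.21, adjusted p 0.0555) or vehicle (-0.19, 0.0703), the count in A549 between MinE07 and vehicle was 0, EGFR in H1975 was called against vehicle (-0.13, 0.0469), and the ERBB3 differences of H820 from H1975 and H3255 were not called (0.25 and 0.21, adjusted p 0.0707 and 0.0859). The block changed no other call of the 6 genes. What depth limits cannot be given without counts.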

Other observations

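The coding genes around EGFR on chromosome 7 shared its high level in H3255 but not all of its fall. This was examined after the values were seen, over the 11 other coding genes that start within 1.2 Mb of the EGFR start (RefSeq, GRCh38.p14) and were tested in H3255. Of the 9 tested in all 4 lines, all 9 had their highest vehicle mean in H3255, from 3.48 times the next line for PSPH to 7.90 times for SEC61G, while EGFR was 16.0 times the next line. The share of all genes with their highest vehicle mean in H3255 was not computed. Of 14523 genes tested, 5136 were called higher in H3255 than in H1975, 6192 than in H820 and 6358 than in A549. SEC61G, a subunit of the protein translocation channel, was 705 ± 30.9 FPKM (SD, n = 3) in vehicle-treated H3255 and 89.2 ± 3.89 FPKM in H1975. With MinE07 against C36 in H3255, 4 of the 11 fell in limma, where 20.0% of all genes did: SEC61G by 0.25 (adjusted p 0.0157), CCT6A by 0.23 (adjusted p 0.000632), VOPP1 by 0.22 (adjusted p 0.00113) and CHCHD2 by 0.18 (adjusted p 0.0305). PSPH rose by 0.11 (adjusted p 0.0198), 1 of the 11, where 16.6% of all genes were called higher. CCT6A also fell in H1975 (-0.19, limma adjusted p 0.00229), where EGFR was not called (-0.11, adjusted p 0.138). LANCL2, NIPSNAP2 and SUMF2, at 64.0 ± 1.60, 253 ± 9.90 and 551 ± 7.17 FPKM with vehicle, differed by 0.08, 0.10 and 0.08 and were not called (adjusted p 0.0735, 0.0734 and 0.0965). The median change of the 680 tested genes of chromosome 7 was 0.00115. DNA copy number was not measured here.

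ERBB2 was above EGFR per length in 8 of 9 libraries of H820, the exception being C36 replicate 2. H820 is labelled with a mutated EGFR, and its EGFR level (7.13 to 8.19 FPKM) was below that of wild-type A549 (17.2 to 20.3 FPKM).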
